A study of Mus musculus with 24 samples.

Results

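The genes described here encode the subunits of oxidative phosphorylation that are made from nuclear genes, with a set of factors that build complex I. They were chosen by name from the wild-type table: protein-coding genes whose symbol begins with Nduf, Uqcr, Atp5, Cox4i, Cox5, Cox6, Cox7 or Cox8, and Sdha to Sdhd, with a mean of at least 10 normalized counts over the 20 wild-type libraries. The rule found 88 genes among 12249 genes that reached that mean and 18091 in the whole table. They were 37 genes of complex I, 8 complex I assembly factors (Ndufaf1 to Ndufaf8), 4 of complex II, 8 of complex III, 13 of complex IV, 17 of complex V and Cox7a2l, which joins complexes into larger assemblies. Ndufa4 and its relative Ndufa4l2 carry complex I names and were counted with complex IV, where the Ndufa4 protein is found. Another 8 genes with matching symbols were pseudogenes, and Cox6b2 and Cox7a1 fell under the mean. Cox6b2, just outside, had a mean of 9.35, and Atp5l and Ndufb4, just inside, had means of 18.6 and 19.9 normalized counts.

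The cells were primary mouse brain microvascular endothelial cells, which line the small vessels of the brain and form the blood-brain barrier. All wild-type groups came from C57B/6J mice, with 12 mice pooled per replicate, passed through 48 h of puromycin against other cell types, grew on permeable inserts and were harvested 24 h after treatment, with 3 inserts pooled per sample. The 5 wild-type groups of 4 libraries received vehicle, 500 nM of the S1P4 agonist CYM50260 on the apical side, the same dose on the basal side, 50 nM of sphingosine-1-phosphate (S1P) on the apical side, or the same dose of S1P on the basal side. A sixth group of 4 libraries held vehicle-treated cells from mice that lack the S1P4 receptor in the whole body, deposited in a table of its own. The agonist and S1P were given at different doses and were not compared with each other. The design calls basal S1P barrier-opening and the other treatments barrier-tightening, and the comparisons ask how transcription differed after each.

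Oxidative phosphorylation passes electrons from NADH through complex I, or from succinate through complex II, to coenzyme Q, then through complex III and cytochrome c to complex IV, where oxygen is reduced. Complexes I, III and IV pump protons across the inner mitochondrial membrane, and complex V, the ATP synthase, uses the gradient to make ATP. Some subunits of complexes I, III, IV and V are encoded by the mitochondrial genome, so each of those complexes needs transcripts from both genomes. Brain capillary endothelium is known for more mitochondria than many other endothelia, while endothelial cells in culture draw much of their ATP from glycolysis.

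The wild-type libraries had totals of 4.49 to 4.72 M normalized counts, and the steps between their values put the reads on genes at 4.00 to 5.54 M. All 15 endothelial markers listed were present, at 0.527 to 0.611% of the total. None of 5 erythroid markers was in the table. Of 10 pericyte markers 9 were in the table, and their sum ran from 268 to 2742 normalized counts, with low and high libraries in most groups. The summed pericyte markers were at 310 to 2742 in vehicle, 387 to 2411 in agonist apical, 268 to 2101 in agonist basal, 887 to 2707 in S1P apical and 300 to 2208 in S1P basal. Other mural and stromal markers varied too: 7 smooth muscle markers summed to 1136 to 2954. Of 6 fibroblast markers 5 were in the table, and they summed to 84 to 841. Xist, the RNA of the inactive X chromosome, differed from the same-numbered libraries of other groups in 4 libraries: agonist apical replicate 2 at 1382, S1P apical replicates 3 and 4 at 525 and 1417, and S1P basal replicate 2 at 552. Vehicle replicates 1 to 4 had 1, 2251, 1063 and 190, and replicate 1 of each treated group had 0. The medians of the 88 genes, and those of their single-gene differences that use these 4 libraries, are given below with and without them. No source used here says which libraries share a cell preparation, so the p-values cover library-to-library spread alone. In RNA from whole cultures, fewer cells of a type and less RNA per cell cannot be told apart.

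In vehicle-treated cells the oxidative phosphorylation genes were well expressed, and the complexes differed in level. Levels between genes are compared as normalized counts per kb of exon. The median gene of the 88 had 113 normalized counts per exonic kb, against 54.6 over all tested genes, which is the 77.4th percentile. Medians per exonic kb were 109 for complex I, 187 for complex II, 162 for complex III, 119 for complex IV, 83.2 for complex V and 43.4 for the complex I assembly factors. The assembly factors, which act during the building of the complex and are not part of it, had a lower median than any of the 5 complexes. The plot of levels by complex shows this order and the range within each complex.

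**Figure D1:**
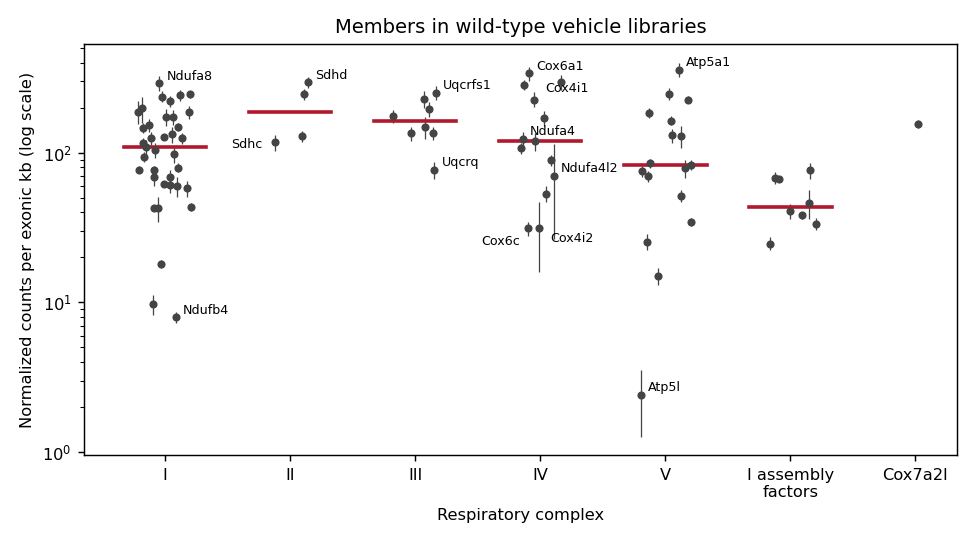
Mean normalized counts per exonic kb (log scale) of each of the 88 genes in the 4 wild-type vehicle libraries, by complex. Points are genes, bars are the SD over 4 libraries and red lines are medians: complex II has the highest median, 187, and the assembly factors the lowest, 43.4.

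In complex I the highest gene per exonic kb in vehicle was Ndufa8, an accessory subunit on the intermembrane side, at 291 ± 34.7 (SD, n = 4). The lowest was Ndufb4, an accessory subunit of the membrane arm, at 7.96 ± 0.66 (SD, n = 4). Ndufs1, the large iron-sulfur subunit of the NADH-oxidising arm, had 61.6 ± 2.63 (SD, n = 4) per exonic kb over a long set of exons. In complex II the membrane anchor Sdhd was highest at 296 ± 25.3, then the flavin-carrying Sdha at 245 ± 19.0, the iron-sulfur subunit Sdhb at 129 ± 11.1 and the anchor Sdhc at 117 ± 13.7 normalized counts per exonic kb (SD, n = 4 each). Sdhd and Sdha were both higher than Sdhb and Sdhc, by more than the SD of any of the 4. In complex III the Rieske iron-sulfur protein Uqcrfs1 was highest at 251 ± 26.0 and the small subunit Uqcrq lowest at 76.6 ± 9.87 (SD, n = 4 each).

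In complex IV the small subunit Cox6a1 was highest at 339 ± 37.7 normalized counts per exonic kb and Cox6c lowest at 31.3 ± 3.35 (SD, n = 4 each). In complex V the catalytic-head subunit Atp5a1 was highest at 359 ± 39.8 per exonic kb. Its partner Atp5b, which holds the catalytic sites, had 247 ± 22.6. Atp5l, a subunit of the membrane part, was lowest at 2.41 ± 1.14 (SD, n = 4 each). Annotated exon length includes exons that these cells may not use, so a low level per kb in a gene with long annotated exons, such as Atp5l at 6.44 kb, Ndufab1 at 6.88 kb or Ndufb2 at 5.63 kb, is a level over all annotated exons. Over 10% of the exonic bases overlapped those of another gene in 13 of the 88 genes: Ndufaf2, Ndufb6, Atp5o, Ndufa13, Uqcrc2, Ndufb9, Atp5pb, Ndufb11, Cox5a, Ndufb1-ps, Atp5j, Ndufb5 and Ndufa2. No source used here gives the strand setting of the counting, so their values may hold reads of the overlapping gene.

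The promoters of the genes highest per exonic kb in complexes I to IV are shown because nuclear respiratory factors are known to bind promoters of many such genes. Each run gives the 250 bases before the transcription start, 5′ to 3′ on the gene's strand, from RefSeq on GRCm38.p6, and capitals mark matches on either strand to the NRF1 core GCGCATGCG or the ETS core CCGGAAG, which the factor GABP also reads.
Ndufa8 (chr2:36049339-36049588, minus strand): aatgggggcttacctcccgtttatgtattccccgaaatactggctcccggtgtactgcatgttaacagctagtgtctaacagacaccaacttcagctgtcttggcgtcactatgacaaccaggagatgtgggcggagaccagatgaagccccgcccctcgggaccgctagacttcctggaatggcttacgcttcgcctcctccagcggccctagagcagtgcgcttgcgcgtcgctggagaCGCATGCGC
Sdhd (chr9:50603850-50604099, minus strand): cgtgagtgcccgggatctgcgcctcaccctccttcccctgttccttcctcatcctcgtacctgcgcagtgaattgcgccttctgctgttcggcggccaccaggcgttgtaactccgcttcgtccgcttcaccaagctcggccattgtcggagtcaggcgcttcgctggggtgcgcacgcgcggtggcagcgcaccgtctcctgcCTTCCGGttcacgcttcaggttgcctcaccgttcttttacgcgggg
Uqcrfs1 (chr13:30545317-30545566, minus strand): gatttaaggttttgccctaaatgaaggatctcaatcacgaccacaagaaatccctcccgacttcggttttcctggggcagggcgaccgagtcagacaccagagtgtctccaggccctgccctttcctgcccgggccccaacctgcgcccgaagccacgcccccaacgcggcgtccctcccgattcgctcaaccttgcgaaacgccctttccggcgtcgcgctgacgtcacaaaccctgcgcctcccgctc
Cox6a1 (chr5:115348959-115349208, minus strand): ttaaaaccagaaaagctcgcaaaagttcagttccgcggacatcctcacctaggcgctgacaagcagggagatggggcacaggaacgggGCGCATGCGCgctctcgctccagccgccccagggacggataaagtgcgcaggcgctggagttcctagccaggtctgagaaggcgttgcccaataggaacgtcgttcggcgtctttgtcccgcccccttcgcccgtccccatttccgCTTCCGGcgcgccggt
Ndufa8 had 1 NRF1 core match, Sdhd 1 ETS core match, Cox6a1 overlapping NRF1 core matches in 1 stretch and an ETS core match nearer the start, and Uqcrfs1 neither. RefSeq windows were found for 72 of the 88 genes. An NRF1 core match stood in 9.72% of them, against 3.14% of the windows of tested genes and 1.49% of all 27025 windows. The 7 genes with one were Ndufa8, Ndufa11, Ndufaf4, Cox6a1, Atp5g2, Atp5k and Atp5l. The ETS core stood in 18.1% of the 72 windows, 14.5% of those of tested genes and 7.05% of all. The YY1 core AAGATGGCG, searched the same way, stood in 0 of the 72 windows and in 1.23% of those of tested genes. The NRF1 and ETS cores do not overlap in sequence as written, and a match is a description of letters in the window. Binding was not measured here.

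After treatment most of the 88 genes had slightly higher mean levels than in vehicle in all 4 treated groups, and none passed the test. Fold changes are differences of group means of log2(value + 1), tested with limma over all 12249 genes with adjusted p under 0.05 as the threshold. With the agonist on the apical side 81 of 88 were higher, with a median difference of 0.11 against 0.00 over all tested genes. A median near 0.00 over all tested genes follows from the scaling of the deposited values. The basal agonist gave 71 of 88 and 0.04. Apical S1P left 85 of 88 above vehicle at a median difference of 0.14. For basal S1P the count was also 85 of 88, and the median was 0.16. These 4 comparisons share the same vehicle libraries, so their counts are not independent of each other. The median standard error of a single gene's difference was 0.13, above both agonist medians and below both S1P medians. The median deviation of the 88 genes had a pooled SD of 0.151 between single libraries of the same group, above the medians of 0.114, 0.039 and 0.141 and just below the 0.158 of basal S1P. The medians are differences between means of 4 libraries, which spread less than single libraries, so this SD does not measure their spread. The medians themselves were not tested.

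Of the 88 genes 0 were called in each comparison. Over all tested genes 0% were called for the agonist apical, the agonist basal and S1P apical against vehicle, and 0% for agonist basal against agonist apical. The share was 0.0245% for basal S1P against vehicle and 0.0245% for basal against apical S1P, which is 3 genes each. At an unadjusted p under 0.05, the numbers among the 88 were 1 for agonist apical, 0 for agonist basal, 2 for S1P apical and 0 for S1P basal, each against vehicle, and 0 in both comparisons of sides. Over all 12249 tested genes these numbers were 134, 38, 122 and 640 against vehicle in the same order. They were 491 for basal against apical S1P and 61 for agonist basal against agonist apical. Basal S1P exceeded apical S1P in 54 of 88 genes (median 0.03), and basal agonist exceeded apical agonist in 10 of 88 (median -0.07).

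**Figure D2:**
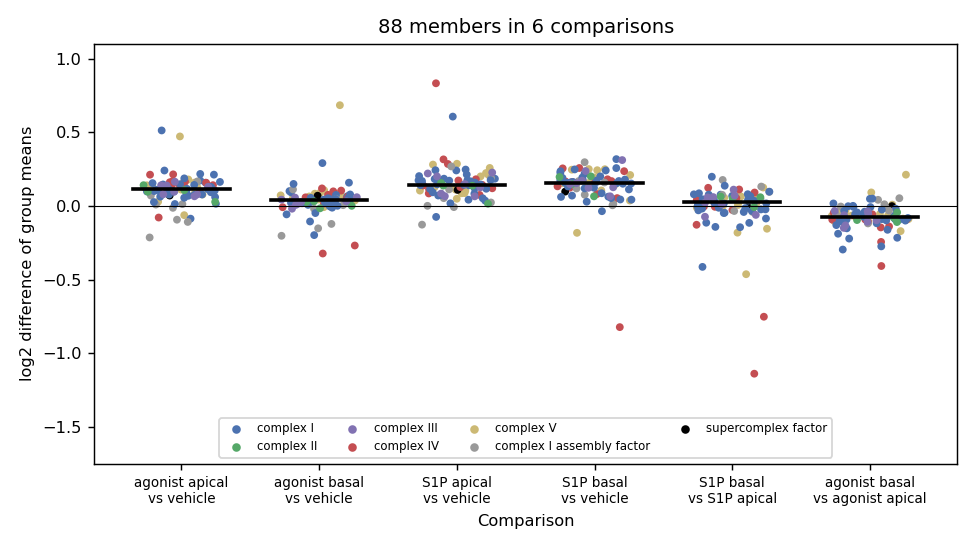
Log2 difference of group means for each of the 88 genes (points, coloured by complex) in 6 comparisons of 4 against 4 wild-type libraries, with medians as black lines. The medians run from -0.07 (agonist basal against agonist apical) to 0.16 (S1P basal against vehicle), and the points far from the rest are Cox4i2, Ndufa4l2, Atp5l and Ndufb4.

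The 5 complexes differed little from each other within a comparison. For basal S1P against vehicle the median log2 differences were 0.16 in complex I, 0.17 in complex II, 0.15 in complex III, 0.16 in complex IV and 0.17 in complex V. For apical S1P they ran from 0.13 in complex V to 0.15 in complex I, and for the apical agonist from 0.10 in complex II to 0.15 in complex IV. The 8 assembly factors had a median of 0.00 with the apical agonist, 4 of 8 higher, and of 0.14 with basal S1P, 8 of 8 higher. Differences between complexes were not tested. Ndufab1, the mitochondrial acyl carrier protein that is also a complex I subunit, was among the genes lower than vehicle in all 4 treated groups.

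Other genes of the pathway and of other housekeeping processes were counted the same way, and 0 were called in any of these lists. Of 76 cytosolic ribosomal protein genes 75, 75, 74 and 74 were higher than vehicle after apical agonist, basal agonist, apical S1P and basal S1P. Their medians were 0.16, 0.10, 0.12 and 0.15 on the log2 scale, above the medians of the oxidative phosphorylation genes for both agonist groups and below them for both S1P groups. Of 15 glycolysis genes 13, 12, 13 and 15 were higher, and of 16 citric acid cycle genes 15, 13, 13 and 15. Of 77 mitochondrial ribosome genes 60, 47, 71 and 74 were higher. Of 39 assembly factors outside the Ndufaf family, 10, 19, 29 and 28 were higher. Of 17 genes for cytochrome c and coenzyme Q synthesis 12, 11, 15 and 13 were higher.

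Regulators of mitochondrial genes showed no common direction: 8, 5, 7 and 7 of 12 were higher than vehicle in the same order, and 7, 7, 4 and 6 of 14 genes for mitochondrial transcription and RNA. None passed the test. The smallest unadjusted p of these genes with the apical agonist belonged to Epas1, the hypoxia-inducible factor 2 alpha gene, with a log2 difference of 0.15 ± 0.06 (SE, limma, adjusted p = 1.00), and then to Mterf4, with -0.23 ± 0.10. For basal agonist against vehicle they were Epas1, 0.12 ± 0.06, and the mitochondrial deacetylase Sirt3, 0.17 ± 0.14. Apical S1P gave Slirp, which binds mitochondrial mRNA, 0.26 ± 0.13, and Sirt3, 0.28 ± 0.14. Basal S1P gave Slirp, 0.33 ± 0.13, and Polg2, the accessory subunit of the mitochondrial DNA polymerase, -0.65 ± 0.28 (limma, adjusted p = 0.756 for both). For basal against apical S1P they were Polg2, -0.60 ± 0.28, and the rRNA methyltransferase Tfb1m, -0.61 ± 0.32. For the agonist sides they were Polg2, 0.38 ± 0.28, and the mitochondrial RNA polymerase Polrmt, 0.11 ± 0.10.

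Single libraries held much of the shift. The deviation of a library is the median over the 88 genes of the log2 distance to each gene's own mean over 20 libraries. In vehicle replicates 1 to 4 it was -0.21, -0.14, 0.05 and -0.04. In agonist apical it was -0.10, 0.08, 0.23 and -0.08, and in agonist basal -0.12, -0.15, 0.11 and -0.02. Vehicle replicates 1 and 2 were low, and replicate 3 was the highest of each of these 3 groups. In S1P apical the deviation was -0.13, -0.04, 0.19 and 0.16. In S1P basal it was -0.13, 0.32, 0.11 and -0.04. Every treated group overlapped vehicle, and replicate 1 was below 0 in all 5 groups. S1P basal replicate 2 had the highest value of the 20 libraries in 63 of the 88 genes, and vehicle replicate 1 the lowest in 39. Over all tested genes the same deviation stayed between 0.00 and 0.01 in each library. The deposited values already had nearly equal median ratios between libraries, with factors of 0.9986 to 1.0012, so this follows from their scaling.

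**Figure D3:**
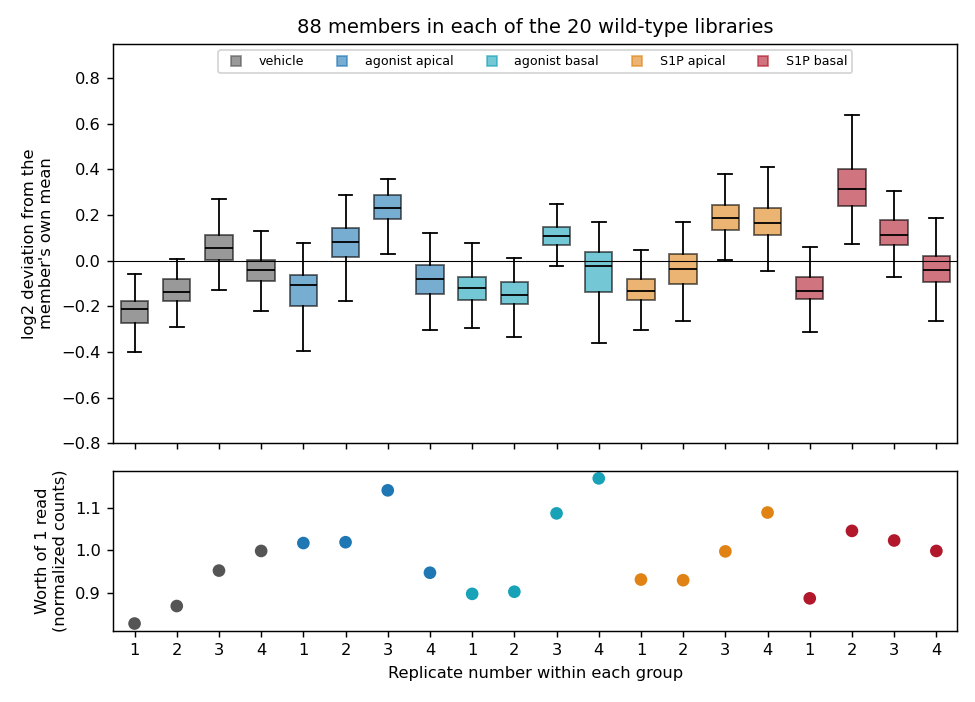
Top, log2 deviation of the 88 genes from their own means in each wild-type library (boxes show quartiles, the black line the median, whiskers up to 1.5 times the box; more distant points are not drawn); bottom, the worth of 1 read in normalized counts. S1P basal replicate 2 has the highest median, 0.32, and vehicle replicate 1 the lowest, -0.21, with the lowest worth of 1 read, 0.83.

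The summed level of the 88 genes ran from 17572 to 24843 normalized counts, which is 0.383 to 0.549% of a library. It was 17572 to 20957 in vehicle, 18763 to 23590 in agonist apical, 18352 to 21731 in agonist basal, 18748 to 22699 in S1P apical and 18730 to 24843 in S1P basal. The genes moved together between libraries: 81 of 88 had r above 0.5 to the median of the other 87 over the 20 libraries. No such count over all tested genes is given here, so this is not shown to be particular to the 88. The median level of the 88 had r = 0.86 to the summed cytosolic ribosomal proteins, r = 0.57 to the worth of 1 read and r = -0.10 to the pericyte sum, given as descriptions over libraries that share a scaling. Replicate number held a median of 44.3% of a gene's sum of squares, and group 17.7%. Over all tested genes these were 42.9% and 13.9%.

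The check against library scaling gave different answers by the kind of scaling. Equal totals, median ratios, equal 75th percentiles, quantile normalization and cyclic loess left the median for basal S1P against vehicle between 0.14 and 0.17, for apical S1P at 0.14 to 0.15 and for the apical agonist at 0.09 to 0.13. For the basal agonist it lay between 0.023 and 0.043, lowest with equal 75th percentiles, where 64 of 88 genes were higher. For basal against apical S1P it lay between 0.003 and 0.036, again lowest with equal 75th percentiles, where 46 of 88 were higher. Between the agonist sides it lay between -0.09 and -0.07. Median ratios gave factors of 0.9986 to 1.0012, so they nearly repeat the deposited scaling and are no separate check. The worth of 1 read is the number of normalized counts that a single read became, so it is high in shallow libraries. It was 0.83 to 0.999 in vehicle, 0.948 to 1.14 in agonist apical, 0.898 to 1.17 in agonist basal, 0.930 to 1.09 in S1P apical and 0.888 to 1.05 in S1P basal. With its log2 as a covariate the medians against vehicle were -0.04, -0.09, 0.03 and 0.06 for apical agonist, basal agonist, apical S1P and basal S1P. In that fit 23, 10, 63 and 72 of 88 genes were higher, so the direction turned for both agonist groups. Depth and treatment overlap only in part in these libraries, and their shares in the shift cannot be told apart.

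Without the 4 libraries whose Xist did not match, the medians against vehicle were 0.11, 0.04, 0.00 and 0.08, with 76, 71, 48 and 74 of 88 higher. For basal against apical S1P the median went from 0.03 to 0.08, with 66 of 88 higher, and between the agonist sides it was -0.06, with 18 of 88 higher. The apical S1P value of 0.00 sets replicates 1 and 2 of that group against all 4 vehicle libraries. Between libraries of the same number, the apical S1P minus vehicle medians were 0.10, 0.09, 0.11 and 0.23 in replicates 1 to 4, with 77, 72, 78 and 80 of 88 genes higher. The last 2 of these medians come from apical S1P libraries with unmatched Xist, so they do not compare libraries known to match. Replicates 1 and 2 of apical S1P, whose Xist did match, were above the vehicle libraries of their own number and level with the vehicle mean. For basal S1P against vehicle the same-number medians were 0.08, 0.45, 0.06 and 0.01, for the apical agonist 0.09, 0.20, 0.18 and -0.03, and for the basal agonist 0.10, -0.01, 0.05 and 0.03. The values of 0.45 and 0.20 also come from libraries with unmatched Xist, replicate 2 of each of these groups. For basal S1P the median fell from 0.16 to 0.08 when only replicate 2 was left out.

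**Figure D4:**
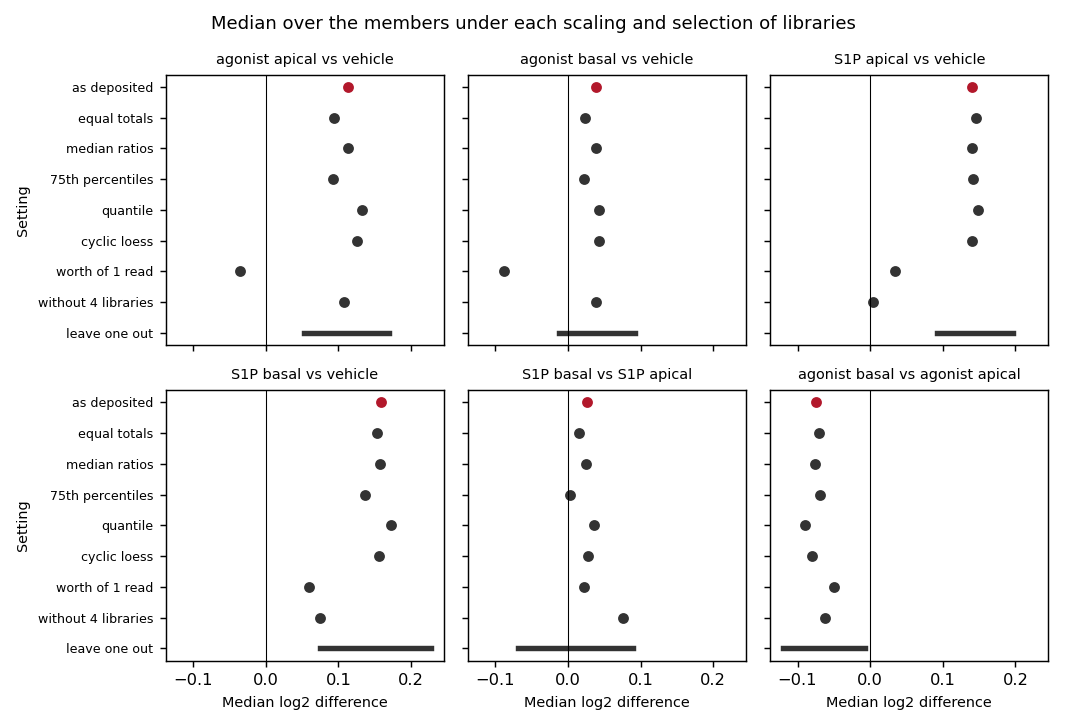
Median log2 difference of the 88 genes in 6 comparisons as deposited (red), under 5 other scalings (median ratios nearly repeat the deposited one), with the worth of 1 read as covariate, without the 4 libraries with unmatched Xist, and as the range when each library is left out (bar). The covariate takes both agonist medians against vehicle below 0, to -0.04 and -0.09, and leaving out the 4 libraries takes apical S1P to 0.00.

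Among single complex I genes Ndufb4 had the smallest p in 3 comparisons. It had 17, 15, 15 and 14 normalized counts in vehicle, 14, 30, 27 and 21 in agonist apical, 16, 28, 28 and 25 in S1P apical and 14, 22, 17 and 18 in S1P basal. In agonist apical and in S1P apical 3 of 4 libraries were above all of vehicle, and replicate 1 of each was at or under its highest value. The log2 difference was 0.51 ± 0.24 for the apical agonist and 0.61 ± 0.24 for apical S1P (SE, limma, adjusted p = 1.00 for both). For basal against apical S1P it was -0.41 ± 0.24. Without the libraries with unmatched Xist these 3 differences were 0.37 ± 0.26, 0.45 ± 0.29 and -0.36 ± 0.31.

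Ndufa6, an accessory subunit near the coenzyme Q site, had 134, 137, 147 and 155 in vehicle and 157, 166, 163 and 165 in S1P apical. It did not overlap between these groups, with a log2 difference of 0.18 ± 0.09 (limma, adjusted p = 1.00). In S1P basal it had 132, 166, 157 and 137, and the difference from apical S1P was -0.14 ± 0.09. Without the unmatched libraries the 2 differences of Ndufa6 were 0.17 ± 0.10 and -0.19 ± 0.11. Ndufs1 had 467, 503, 510 and 513 in vehicle and 514, 541, 526 and 534 in S1P basal, again without overlap, by a margin of 1 normalized count. Its log2 difference was 0.09 ± 0.06 (limma, adjusted p = 0.756), and its SD over the 20 libraries, 0.06 on the log2 scale, was the smallest of the 88 genes. Without S1P basal replicate 2 and the other unmatched libraries it was 0.08 ± 0.06.

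Groups that did not overlap were counted for all genes. All 4 treated libraries were above all 4 of vehicle for 0 of 88 genes with the apical agonist (0.335% of tested genes), 0 for the basal agonist (0.278%), 2 for S1P apical (0.604%) and 1 for S1P basal (1.03%). The 2 were Ndufa6 and Atp5g2, and the 1 was Ndufs1. For basal above apical S1P the count was 0 (0.751%), and for agonist basal above agonist apical 0 (0.261%). No gene of the 88 was below in all libraries in any of the 6 comparisons. Against vehicle the share of tested genes below was 0.343% for agonist apical, 0.310% for agonist basal, 0.718% for S1P apical and 1.08% for S1P basal. It was 0.645% for basal against apical S1P and 0.171% for agonist basal against agonist apical. For S1P apical the 2 of 88 above vehicle stood beside 74 of 12249 tested genes, and for S1P basal the 1 of 88 beside 126. Counts of 0 to 2 genes are small, and they were not tested against these backgrounds.

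With basal agonist against apical agonist the smallest p among the 88 belonged to complex I genes. Ndufa2 had 138, 160, 186 and 150 in agonist apical and 126, 136, 159 and 105 in agonist basal, which overlap, with a log2 difference of -0.27 ± 0.14. Ndufb1-ps, annotated as protein-coding despite its name, differed by -0.30 ± 0.17, and Ndufa1, an X-linked subunit, by -0.22 ± 0.17 (SE, limma, adjusted p = 1.00 for all). Without the unmatched libraries these 3 were -0.27 ± 0.14, -0.27 ± 0.15 and -0.15 ± 0.16. With the basal agonist against vehicle Ndufb5 differed by 0.15 ± 0.11 and the assembly factor Ndufaf3 by -0.15 ± 0.11. Ndufaf3 had 122, 117, 125 and 123 in vehicle and 113, 96, 113 and 117 in agonist basal, which touch at 117.

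In complex II no gene was among the 3 smallest p of any comparison. Sdha had 960, 942, 1036 and 1113 in vehicle and 973, 1126, 1083 and 1053 in S1P basal, and Sdhd had 336, 338, 390 and 392 in vehicle and 348, 529, 419 and 389 in S1P basal. Both overlapped, and replicate 2 was the highest of S1P basal in each. Sdhb had 267, 272, 321 and 297 in vehicle and 291, 383, 365 and 298 in S1P basal. Sdha, with an SD of 0.09 on the log2 scale over 20 libraries, varied least after Ndufs1. In complex III Uqcr11, a small subunit, had the smallest p for basal S1P, with 82, 97, 116 and 85 in vehicle and 102, 151, 123 and 99 in S1P basal. The groups overlapped, and the log2 difference was 0.31 ± 0.15 (SE, limma, adjusted p = 0.756), or 0.19 ± 0.14 without the unmatched libraries.

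In complex IV several subunits exist as forms from different genes, and 2 of the minor forms stood apart from all other genes. Cox4i1, the form found in most tissues, had 299, 344, 392 and 370 in vehicle, and Cox4i2, a form known from lung and from hypoxia, had 35, 29, 28 and 7. Per exonic kb these were 227 ± 25.8 and 31.4 ± 15.5 in vehicle (SD, n = 4 each). In agonist apical Cox4i2 had 37, 30, 18 and 8, in agonist basal 24, 30, 21 and 5, in S1P apical 35, 40, 23 and 16, and in S1P basal 28, 13, 20 and 2. Replicate 4 was the lowest in all 5 groups, and every treated group overlapped vehicle.

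Ndufa4 had 147, 170, 190 and 178 in vehicle, and its relative Ndufa4l2, a hypoxia-inducible gene, had 114, 112, 68 and 13. Ndufa4l2 had 129, 105, 66 and 19 in agonist apical, 106, 90, 67 and 8 in agonist basal, 142, 120, 115 and 62 in S1P apical and 112, 102, 70 and 18 in S1P basal. Again replicate 4 was lowest in every group and the groups overlapped. Against vehicle the log2 differences of Cox4i2 were -0.08, -0.32, 0.32 and -0.82, each ± 0.68 (SE), after apical agonist, basal agonist, apical S1P and basal S1P. For basal against apical S1P it was -1.14 ± 0.68, and for the agonist sides -0.24 ± 0.68. For Ndufa4l2 the differences from vehicle were 0.14, -0.27, 0.83 and 0.08, each ± 0.81, and between sides -0.75 ± 0.81 for S1P and -0.41 ± 0.81 for the agonist. Without the unmatched libraries Cox4i2 was at -0.26, 0.78 and -0.87 against vehicle after apical agonist, apical S1P and basal S1P, and at -1.65 and -0.06 between the S1P and the agonist sides. Ndufa4l2 was then at -0.09, 1.14 and -0.16 against vehicle and at -1.30 and -0.18 between sides. None passed the limma test, with adjusted p of 0.760 or more in all 20 libraries and 0.701 or more without the unmatched ones. The sign of several differences changed when 1 library was left out.

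Ndufa4l2 and Cox4i2 had the largest SDs of the 88 genes over the 20 libraries, 1.18 and 1.00 on the log2 scale, and replicate number held 81.1% and 73.1% of their sum of squares. Over the 20 libraries they had r = 0.97 and r = 0.92 to the summed pericyte markers, and they were the 2 of 88 genes with r above 0.7. Cox4i1 and Ndufa4 had r = -0.23 and r = -0.33. Over all tested genes the closest to Ndufa4l2 were Cspg4, Axl and Gucy1b1, with r of 0.99, 0.98 and 0.98, and the closest to Cox4i2 were Tbx2, Zic1 and Pdgfrb, with r of 0.95, 0.94 and 0.94. Cspg4 and Pdgfrb are in the pericyte list itself. The libraries share replicate numbers and scaling, so these are descriptions. The part of pericyte, smooth muscle or fibroblast RNA in the values of Cox4i2 and Ndufa4l2 was not tested.

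**Figure D5:**
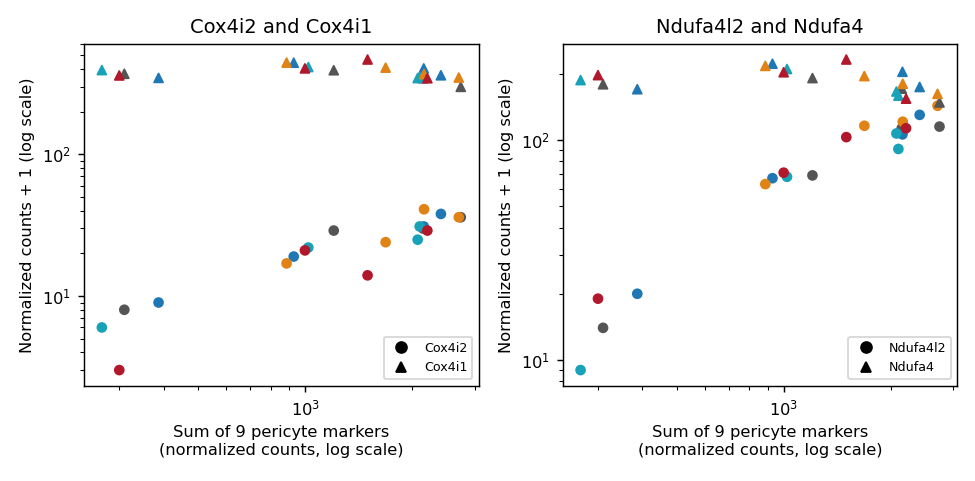
Normalized counts + 1 of Cox4i2 and Cox4i1 (left) and of Ndufa4l2 and Ndufa4 (right) against the sum of 9 pericyte markers in the 20 wild-type libraries, on log scales; colours are grey for vehicle, blue for agonist apical, cyan for agonist basal, orange for S1P apical and red for S1P basal. Cox4i2 and Ndufa4l2 are low in the libraries with a low pericyte sum, with r of 0.92 and 0.97, while Cox4i1 and Ndufa4 have r of -0.23 and -0.33.

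Of the other complex IV genes, Cox7a2, the widely expressed form of its subunit, had 146, 159, 186 and 150 in vehicle and 162, 189, 223 and 210 in S1P apical. In S1P apical 3 of 4 libraries were above all of vehicle, and the log2 difference was 0.29 ± 0.14 (SE, limma, adjusted p = 1.00), or 0.13 ± 0.16 without the unmatched libraries. Its heart and muscle relative Cox7a1 had a mean of 2.75 over 20 libraries and was left out by the mean. Cox7c differed by 0.21 ± 0.13 after apical agonist, and by 0.17 ± 0.14 without the unmatched libraries. Cox6b1 had 188 to 235 in vehicle and 202 to 296 in S1P basal, while the testis form Cox6b2 had 6 to 11 and 6 to 15. Cox8a had 160 to 192 in vehicle and 174 to 215 in S1P basal, Cox7b 119 to 169 and 144 to 207, and all of these overlapped. Cox7a2l, the supercomplex factor, had 215 to 250 in vehicle and 226 to 269 in S1P basal.

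In complex V the 3 genes for the c subunit, which forms the turning ring, encode the same mature protein. Atp5g3 was the highest of the 3 per exonic kb in vehicle, at 131 ± 14.3, then Atp5g2 at 34.6 ± 2.12 and Atp5g1 at 25.4 ± 3.10 (SD, n = 4 each). Atp5g2 had 54, 56, 61 and 61 in vehicle and 65, 64, 69 and 69 in S1P apical, without overlap, with a log2 difference of 0.20 ± 0.11 (limma, adjusted p = 1.00), or 0.15 ± 0.14 without the unmatched libraries. Atp5g1 had 115, 109, 139 and 137 in vehicle and 139, 181, 140 and 136 in S1P basal, which overlap, with a difference of 0.25 ± 0.12, or 0.15 ± 0.11 without the unmatched libraries. Atp5h, a stalk subunit, differed by 0.17 ± 0.10 after apical agonist and 0.21 ± 0.10 after basal S1P. Without the unmatched libraries these were 0.14 ± 0.10 and 0.13 ± 0.10. Atp5l had 20, 23, 7 and 12 in vehicle and 25, 31, 27 and 14 in agonist basal, a difference of 0.68 ± 0.40, and its SD over 20 libraries, 0.62, was the third largest of the 88. Atp5a1 had 1004, 1035, 1236 and 1233 in vehicle and 1098, 1405, 1296 and 1217 in S1P basal, with replicate 2 again highest.

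In the libraries from S1P4 knockout mice all 88 genes were present. That table was normalized separately, held 17.4 to 17.8 M normalized counts per library and had genes the wild-type table lacks, so its values are set beside wild-type vehicle as shares of each library's total and were not tested. The median ratio of knockout to wild-type vehicle was 1.28 over the 88 genes, with 64 above 1, and 0.506 over 12163 genes tested in wild type and present in both tables. Medians were 1.09 for complex I, 1.30 for complex II, 1.47 for complex III, 2.01 for complex IV and 1.89 for complex V. The 8 complex I assembly factors had a median of 0.528, with 0 above 1. Cytosolic ribosomal protein genes had a median ratio of 6.14, above every complex. Genotype and table cannot be told apart in these ratios.

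The order of the genes was much alike in both tables, with a Spearman rho of 0.90 between their levels per exonic kb across the 88 genes, which are not independent replicates. Atp5a1 had 10440, 10468, 12998 and 13552 in the 4 knockout libraries, and Atp5b had 12456, 12797, 16031 and 16335. Replicates 3 and 4 were higher than replicates 1 and 2 in both. The share of the 88 genes in a knockout library was 0.560, 0.609, 0.757 and 0.770% in replicates 1 to 4. The lowest ratios belonged to Atp5l, at 0.042, Ndufa4l2, at 0.163, and Cox4i2, at 0.176, and the highest to Atp5o, at 4.44. Atp5l had 7, 2, 1 and 0 normalized counts in the knockout libraries, so its ratio rests on values near 0. Ndufa4l2 had 40, 66, 62 and 24 and Cox4i2 had 13, 25, 14 and 15 in the knockout libraries.

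Subunits encoded by the mitochondrial genome could be seen in the knockout table only, where 12 mitochondrially encoded genes were listed, 7 of them mRNAs. mt-Co1, the catalytic subunit of complex IV, had 195728, 202915, 238642 and 139965 normalized counts, a mean of 1.11% of the total. mt-Nd5 of complex I had a mean of 0.347% and mt-Cytb of complex III 0.177%. Replicate 4 was the lowest of the 4 for each of the 3, while it had the highest share of the nuclear genes. The wild-type table listed 0 mitochondrially encoded genes, so the balance of the 2 genomes' transcripts was not analysed here in the treated groups.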

How the data were processed

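RNA was measured in 24 libraries in 6 groups of 4. Per the submitters' processing notes, the tools were DESeq2 1.26.0, featureCounts 1.6.5 (Subread), STAR 2.7.3a, Trimmomatic 0.38 and FastQC on mm10, with no roles given. No source used here states the strand setting. The authors made 1 table of wild-type and 1 of knockout libraries, and the deposited values are a signal per gene: whole numbers that look like counts divided by 1 factor per library and rounded, as read from the values, and called normalized counts here. No count model was used, because the values are rounded after scaling. Whether the reads behind them can be recovered exactly was not tested. Columns named SP1 were read as S1P, since no other label matches them. Repeated identical rows of the knockout table (36326 rows for 18297 genes) were used once.

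The oxidative phosphorylation genes and all other lists, the comparisons and the alternatives were chosen with earlier results of these data known. Differences were tested with limma 3.58.1 (R 4.3.3) on log2(value + 1) over the 12249 genes with a mean of at least 10, with group means over all 20 wild-type libraries, a mean-dependent prior variance and Benjamini-Hochberg adjustment. A fold change on this scale understates the change of low genes. The script was tested on simulated data. Exonic lengths came from GENCODE M21 (mm10), whose starts and ends 99.1% of wild-type genes shared, and promoters from RefSeq (GRCm38.p6). The worth of 1 read was estimated from the steps between values in each library. Other steps used Python 3.11.15 with pandas 2.3.3, scipy 1.17.1 and matplotlib 3.10.9.

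Named genes were the highest and lowest per exonic kb in each complex, all genes of tissue isoform groups, the 3 smallest p in each comparison, the 3 largest and 3 smallest SDs, those just inside and outside the mean of 10, the 4 succinate dehydrogenase genes and, from the regulators and mitochondrial transcription genes, the 2 smallest p. Others (Atp5b, Ndufab1, Ndufs1's and Atp5g2's missing overlap, Atp5o in the knockout) were named after their values were seen. Same-numbered libraries of different groups had correlations of their deviations from -0.34 to 0.81 over 40 pairs. In the 4 comparisons without basal S1P every pair was over 0.1, which does not establish that the numbers pair the libraries. Agonist apical replicate 2 and S1P apical replicates 3 and 4 did not correlate best with the vehicle library of their number. Their correlations with it were 0.43, 0.38 and 0.40. The tests reported used no pairing, and replicate number was a block in alternative fits only. In the 2 comparisons with basal S1P some pairs were not over 0.1. Over all 40 pairs 4 were at or under 0.1. Among these was replicate 2 of basal S1P with basal agonist (-0.04), groups that were not compared.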

Additional observations from a re-analysis of the deposited data

Results flagged for a closer look

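In 5 cases 1 library of a group of 4 stood apart from the other 3 in a gene named above, by a gap larger, as a share of the group's range, than Dixon's 95% critical value. Sdhc had 492 normalized counts in agonist apical replicate 3, against 387 to 402 in the other replicates. Atp5g3 had 335 in agonist basal replicate 3, against 278 to 287. Cox7a2l had 267 in S1P apical replicate 4, against 240 to 244. Atp5l had 33 in S1P apical replicate 2, against 13 to 15. Atp5g1 had 181 in S1P basal replicate 2, against 136 to 140. All 5 were the highest of their group. Over all 88 genes and 5 groups 11 of 440 combinations had such a gap, and chance gives about 1 in 20.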

How the results depend on the processing

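The 88 genes had 0 calls in each of the 6 comparisons under all 22 alternatives per comparison, with a smallest adjusted p of 0.0897 (limma, basal against apical S1P with replicate number as a block; the other comparisons' smallest ran from 0.166 to 0.980). Of the 35 named genes of the 88, 210 differences were recomputed under 4602 alternatives in all. None was called, and 295 changed sign, in 113 of the 210 differences: 164 with a library left out, 61 with the worth of 1 read as covariate, 31 without the 4 libraries with unmatched Xist and 39 under the other settings run. Over the 295 sign changes, the size of the difference in the fit reported had a median of 0.03 and was at most 0.41. In 49 of the 295 it was over 0.1. Only the differences printed in the report are given singly here, a limit set after the sign changes had been counted. Of them, those of Cox4i2 and Ndufa4l2 changed sign. With the worth of 1 read as covariate, Cox4i2 was at 0.64 for apical agonist and 0.27 for basal agonist, and Ndufa4l2 at 0.48 for basal agonist. Without the 4 libraries, Ndufa4l2 was at -0.092 for apical agonist and -0.16 for basal S1P. With each library left out, Cox4i2 ran from -0.57 to 0.33 for apical agonist, -0.82 to 0.20 for basal agonist, -0.18 to 0.55 for apical S1P and -0.66 to 0.28 between agonist sides. Ndufa4l2 ran from -0.56 to 0.71 for apical agonist, -0.96 to 0.55 for basal agonist, -0.62 to 0.66 for basal S1P and -0.98 to 0.41 between agonist sides, each end set by a replicate 4. The median of the 88 genes with a library left out ran from 0.05 (without agonist apical replicate 3) to 0.17 for apical agonist, -0.01 (without agonist basal replicate 3) to 0.09 for basal agonist, 0.09 (without S1P apical replicate 4) to 0.20 for apical S1P, 0.08 (without S1P basal replicate 2) to 0.23 for basal S1P, -0.07 (without S1P basal replicate 2) to 0.09 for basal against apical S1P, and -0.12 to -0.01 (without agonist apical replicate 3) between agonist sides.

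Over all tested genes the 3 calls for basal S1P against vehicle became 0 in the fit of only the 8 libraries compared, and 47 and 62 with the replicate block without and with cyclic loess. For basal against apical S1P the 3 calls became 1 with the 8 libraries, 83 and 90 with the block, 0 without the 4 libraries, and 1 to 3 with a library left out (1 without S1P apical replicate 2 or 3, or S1P basal replicate 1 or 3). In the blocked fit 17 of the 88 genes had an unadjusted p under 0.05 for basal S1P against vehicle, against 0 without the block. For apical S1P they were 8 against 2, and the other 4 comparisons had 0 to 2 with the block and 0 or 1 without it. Over all 12249 tested genes the blocked fit had 2013 under that p for basal S1P and 544 for apical S1P. Without the block these were 640 and 122. None of the 88 genes was called. The block changed no other call; 26 of 40 same-numbered pairs correlated best with their own number. The causes of these changes were not tested. With 4 libraries of 4.00 to 5.54 M reads each per group, 5 of the 6 medians were smaller than the pooled SD of 0.151 between single libraries, and that of basal S1P against vehicle, 0.158, was just above it. A difference between means of 4 libraries spreads less than single libraries, so that SD gives no verdict on the medians.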
